A study of Mus musculus with 2 samples.

Results

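Type I interferon response genes were examined in the thymus of mice with a Pla2g10 transgene. The group consists of 33 genes that interferon is known to induce or that carry its signal, listed by name. A gene was found where the array design gave a probe exactly that name, or 1 of 2 older names (G1p2 for Isg15, Tyki for Cmpk2), and its brightest probe stood for it. Of the 33 genes, 30 had such a probe, 46 probes in all among the 41174 on the array. Dhx58, Irf9 and Xaf1 had none. A gene was counted as measured where, by the scanner software's own flag, at least 1 genotype was well above background each time, on array 1 and on array 2. That left 18 of the 33 genes, among 9422 measured genes in all.

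The transgenic animals were Pla2g10-Tg/+ mice, which overexpress group X secreted phospholipase A2 per the labels, and the controls were littermates without the transgene. Both were 6 months old, on a C57BL/6 background, and kept pathogen-free on a standard diet (CE2). RNA of 4 thymi was pooled per genotype, and the labels do not name the promoter that drives the transgene. Both pools were hybridised together on each of 2 two-colour Agilent arrays, with the transgenic pool in the red dye Cy5 on array 1 and in the green dye Cy3 on array 2. Every ratio below reads transgenic over control on the log2 scale, averaged over the arrays, ± their SD (n = 2 arrays). The labels do not say whether the arrays carry separate pools, so they count as 1 replicate, the SD is technical, and no difference was tested across animals.

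Type I interferons bind the IFNAR1-IFNAR2 receptor, whose kinases JAK1 and TYK2 pass the signal on by phosphorylation. The complex ISGF3, which includes STAT2 and IRF9, then binds the interferon-stimulated response element, a pair of GAAA blocks, in the promoters of the induced genes. The induced proteins sense or degrade viral RNA, modify proteins with ISG15, or act as antiviral GTPases. In the thymus, epithelial cells of the medulla are known to make interferons without infection, so the pathway has a basal activity there.

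The core searched for was GAAA, any 2 bases and GAAA again, on either strand (read from the other strand, TTTC, any 2 bases, TTTC). It stood in 14 of the 24 genes of the group with an entry in the RefSeq promoter table (GRCm38.p6, 250 bases before to 50 after the gene start). Over the whole table, 3.99% of 27025 genes held it. The genes of the group were listed as interferon-induced, so their share describes the list and is no result of the arrays. Stretches of 160 bases ending just before the start are shown for 6 measured genes with ratios from 0.030 (Igtp) to 0.30 (Ifit3), with the response element core in capitals. Irf1 is shown because it lacks that core and holds instead the gamma-activated site TTCNNNGAA, the capitals in its line, which 8.30% of promoters hold.
Ifit3, chr19:34583369-34583528, plus strand: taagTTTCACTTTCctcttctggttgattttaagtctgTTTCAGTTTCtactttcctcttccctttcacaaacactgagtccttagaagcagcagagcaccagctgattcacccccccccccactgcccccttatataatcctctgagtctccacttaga
Isg15, chr4:156200819-156200978, minus strand: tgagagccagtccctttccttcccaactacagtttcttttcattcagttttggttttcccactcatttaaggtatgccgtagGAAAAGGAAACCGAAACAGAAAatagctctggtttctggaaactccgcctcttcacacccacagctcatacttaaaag
Gbp2, chr3:142620503-142620662, plus strand: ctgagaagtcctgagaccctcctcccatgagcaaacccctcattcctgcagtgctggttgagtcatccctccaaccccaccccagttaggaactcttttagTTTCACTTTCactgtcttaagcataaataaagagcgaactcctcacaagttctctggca
Bst2, chr8:71537473-71537632, minus strand: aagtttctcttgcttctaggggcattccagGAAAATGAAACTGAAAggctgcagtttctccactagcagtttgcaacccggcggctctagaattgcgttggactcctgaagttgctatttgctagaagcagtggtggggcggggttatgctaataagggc
Igtp, chr11:58199396-58199555, plus strand: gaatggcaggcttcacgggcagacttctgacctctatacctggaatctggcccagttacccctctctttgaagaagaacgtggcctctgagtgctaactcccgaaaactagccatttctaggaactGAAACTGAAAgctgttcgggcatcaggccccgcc
Irf1, chr11:53769854-53770013, plus strand: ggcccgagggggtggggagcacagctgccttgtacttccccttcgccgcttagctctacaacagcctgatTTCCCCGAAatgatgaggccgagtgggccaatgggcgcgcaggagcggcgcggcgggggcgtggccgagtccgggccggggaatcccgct
The cores overlap each other in Isg15, which has 3 in a row, and in Bst2, which has 2. Bst2 and Igtp also hold a gamma-activated site, not in capitals here, and in Bst2 it overlaps the first core. Of the 18 measured genes, 13 had a promoter entry. The 9 with the element had a median ratio of 0.086 and the 4 without it 0.076, and the difference was not tested. The 5 without an entry, Ifi27, Usp18, Rtp4, Iigp1 and Zbp1, include 4 of the 5 highest ratios. A match in these letters is a description of the sequence, not a bound site.

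Most interferon response genes read slightly higher in the transgenic pool, and 5 of them passed a log2 difference of 0.2, a count that became 0 with median centring in place of loess. The median over the 18 measured genes was 0.090, against -0.0021 over all measured genes. It was 0.12 on array 1, where 13 of 18 were above 0 (52.9% of all measured genes), and 0.11 on array 2, where 14 of 18 were (46.4%). In the mean of both arrays 16 of 18 were above 0 (49.3%). On both arrays 11 of 18 were above 0, where 28.3% of all measured genes were, and 2 of 18 were below 0 on both, where 29.0% of all were. A difference of at least 0.2 in the mean, about 1.15-fold, with 1 sign on both arrays was reached by 5 of 18 upwards (6.43% of all measured genes) and by 0 of 18 downwards (5.20%). No gene of the group was 2-fold different (0.0318% of all measured genes were that much higher and 0% that much lower, each array at 0.5 or more). The spread between arrays was like that of other genes, with a median SD of 0.093 in the group and 0.090 over all measured genes. The difference between the arrays divided by 2, which carries the dye effect, reached 0.2 in 1 of 18 genes and in 5.29% of all.

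**Figure D1:**
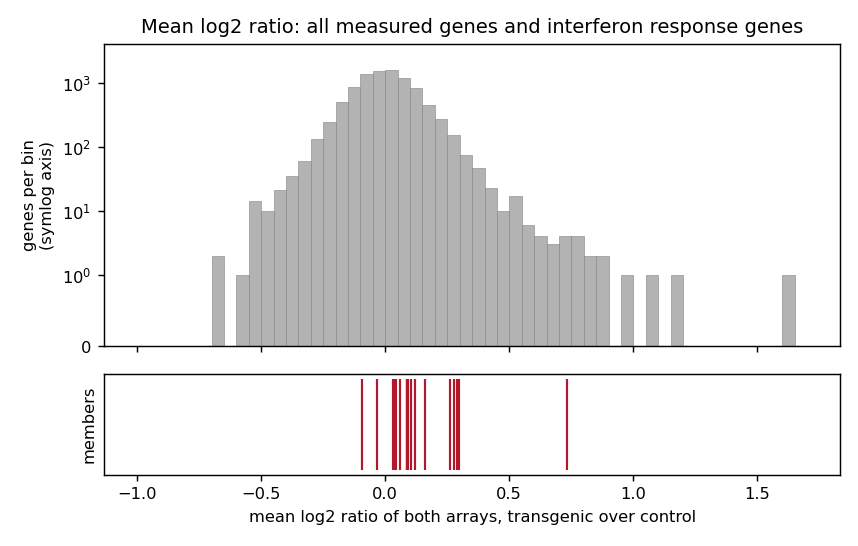
Mean log2 ratio of both arrays (x axis, transgenic over control) for all 9422 measured genes as a histogram with bins of 0.05 (upper panel, number of genes on a symlog axis, linear below 1) and for the 18 measured interferon response genes as single lines (lower panel). Of the 18 lines, 16 lie above 0, and the one farthest to the right, at 0.73, is the gene named Ifi27 in the array design.

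Signal limits what these arrays could show. The 18 measured genes were well above background in all 4 channels, with mean signals of 28.2 to 597 scanner units above local background and a median of 77.2, against 95.7 over all measured genes. The 12 genes that were not measured gave 3.29 to 34.9 units in single channels. They were Irf7, Ifit1, Oas1a, Oas1g, Oas2, Oas3, Oasl1, Mx1, Mx2, Rsad2, Cmpk2 and Ifi44, which include the RNA-activated oligoadenylate synthetases and the Mx GTPases that are often used to detect an interferon response. Only Ifit1, Mx2 and Ifi44 had 1 channel well above background, the transgenic one on array 1 in each case, and the other 9 had none. Their ratios ran from -0.013 to 0.15 in the mean and are given without a call. In the measured genes the red channel read higher, except for Isg15 on array 2, so raw signals of the same gene can be compared between genotypes only through the ratio. Igtp, for example, read 526 units in the transgenic and 307 in the control channel on array 1, and 256 and 473 on array 2, which after normalization gave ratios of 0.043 and 0.017.

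**Figure D2:**
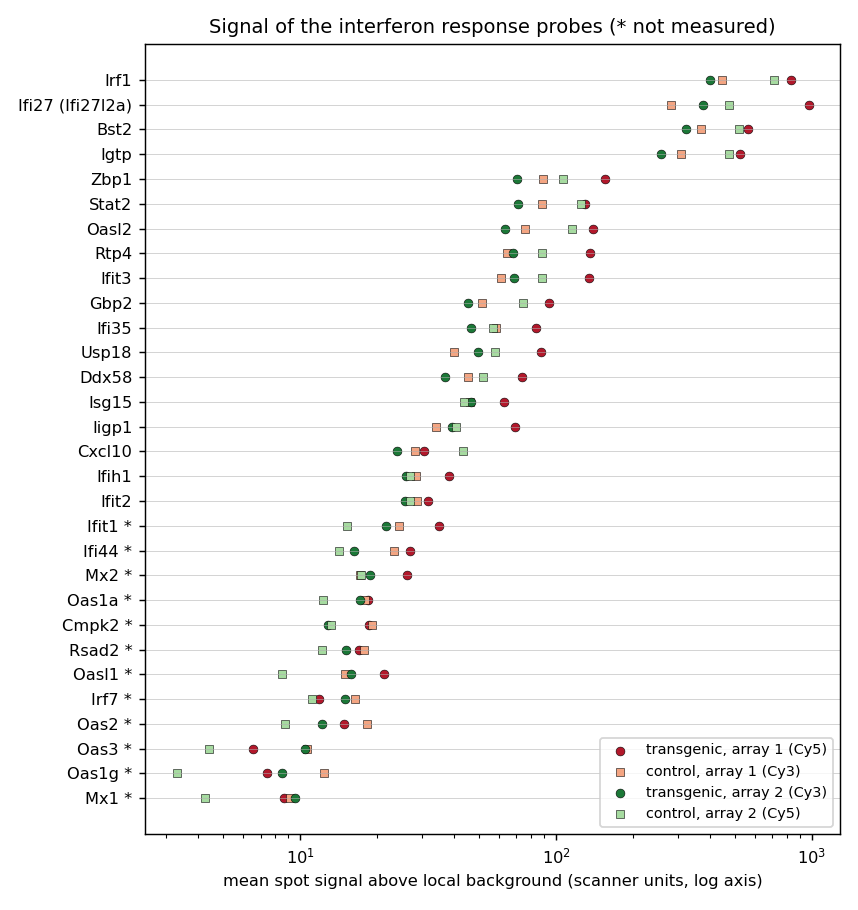
Mean spot signal above local background in scanner units (x axis, log scale) of the brightest probe of each of the 30 interferon response genes with a probe (rows, ordered by mean signal), 1 point per genotype and array. The 12 genes marked with an asterisk were not measured and lie below the 18 measured ones, at under 35 units in each channel.

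The largest ratio belonged to the gene named Ifi27 in the array design, but its accession, NM_029803, is that of Ifi27l2a in the RefSeq table, a small interferon-induced membrane protein gene next to Ifi27. Its brightest probe (A_52_P90363, mm8 chr12:103843234-103843293) read 974 units in the transgenic and 281 in the control channel on array 1, and 376 and 475 on array 2. The log2 ratios were 0.94 and 0.52, a mean of 0.73 ± 0.30 or 1.66-fold. Only 13 of the 9422 measured genes had a higher ratio. Both other probes of that name were higher too, at 0.58 ± 0.33 and 0.55 ± 0.06, so all 3 were above 0 on both arrays. The probe at 0.55 is also Ifi27l2a in the RefSeq table. The probe at 0.58 (mm8 chr12:103856768-103856827) has no gene in that table, so it may not read the same gene. The probe whose accession is Ifi27 in the RefSeq table, NM_026790, carried the older name D12Ertd647e and read 0.23 and 0.07 on arrays 1 and 2, a mean of 0.15 ± 0.11. Without the gene named Ifi27, the median of the remaining 17 was 0.089, and 10 of them were above 0 on both arrays (28.3% of all measured genes).

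Ifit3, Usp18, Rtp4 and Iigp1 followed, each on both arrays. Ifit3 belongs to a family that binds foreign RNA ends and blocks its translation. Its probe (mm8 chr19:34654612-34654671) gave 0.37 on array 1 and 0.22 on array 2, a mean of 0.30 ± 0.11 or 1.23-fold. Usp18, the protease that removes ISG15 from proteins and damps signalling at the receptor (mm8 chr6:121236114-121236173), gave 0.36 and 0.22, a mean of 0.29 ± 0.10. Rtp4, an interferon-induced chaperone of G protein-coupled receptors (mm8 chr16:23528931-23528990), gave 0.34 and 0.22, a mean of 0.28 ± 0.09. Iigp1, an immunity-related GTPase that attacks the vacuoles of intracellular parasites, gave 0.30 and 0.22, a mean of 0.26 ± 0.06. All 4 read higher on array 1 than on array 2, and on both arrays they lay above 0.2. Their signals above background on array 1 were 135 units in the transgenic and 61.2 in the control channel for Ifit3. On array 2, with the dyes exchanged, they were 68.5 and 87.9. Usp18 read 87.4 and 39.9 on array 1 and 49.7 and 57.8 on array 2. Rtp4 read 136 and 64.4, then 68.2 and 88.0. Iigp1 was the dimmest of them, at 68.9 and 33.8 on array 1 and 39.1 and 40.5 on array 2. For all 4 the red channel was the brighter one on each array, by little for Iigp1 on array 2, so the raw signals overlap between genotypes and only the normalized ratios separate them. Without the offset of 50 that was added to both channels and shrinks ratios of dim genes, they read 0.48 (Ifit3), 0.56 (Usp18), 0.44 (Rtp4) and 0.58 (Iigp1), and Ifi27 read 0.82.

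**Figure D3:**
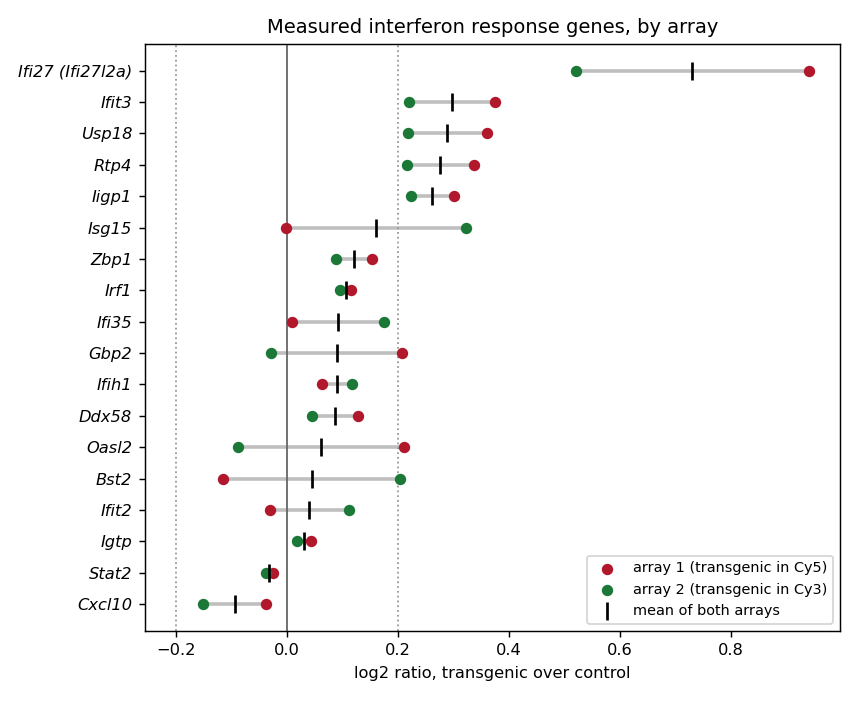
Log2 ratio of transgenic over control (x axis) for the 18 measured interferon response genes (rows), on array 1 in red and array 2 in green, with the mean as a black line and dotted lines at 0.2 and -0.2. In the top 5 rows both points lie above 0.2, while in the rows of Isg15, Gbp2, Oasl2, Bst2 and Ifit2 the arrays lie on opposite sides of 0.

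The sensors of viral nucleic acid were all slightly above 0 on both arrays. Zbp1, which senses Z-form nucleic acid and can trigger cell death, was at 0.12 ± 0.05. Ifih1, which encodes the long double-stranded RNA sensor MDA5, was at 0.09 ± 0.04, and Ddx58, which encodes the RNA sensor RIG-I, was at 0.09 ± 0.06. None of the 3 reached 0.2, but Ifih1 read 0.26 with an offset of 0 and 0.37 with the software's ratios, past 0.2 with 1 sign on both arrays in each case. Among the factors that carry the signal, Irf1, a transcription factor induced by type I and type II interferon, was at 0.11 ± 0.01, with nearly equal ratios of 0.11 and 0.10 on arrays 1 and 2. Stat2, the ISGF3 subunit, was at -0.03 ± 0.01 and slightly below 0 on both arrays.

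The arrays gave opposite signs for 5 of the 18 genes, and for 4017 of all 9422 measured genes. Isg15, the ubiquitin-like modifier, read -0.0021 on array 1 and 0.32 on array 2, a mean of 0.16 ± 0.23, and lay just outside the 5 genes past 0.2. The file places its probe on chromosome 17, while the gene of its accession lies on chromosome 4 in the RefSeq table, so the probe's position is not given here. Bst2, the tetherin that holds budding viruses at the cell surface, read -0.12 and 0.20. Oasl2, a ubiquitin-like relative of the oligoadenylate synthetases, read 0.21 and -0.09. Gbp2, a guanylate-binding GTPase, read 0.21 and -0.03, and Ifit2 read -0.03 and 0.11. For these genes no direction is given.

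Of the remaining genes, Ifi35, an interferon-induced protein with a leucine zipper, was at 0.09 ± 0.12 and Igtp, an immunity-related GTPase, at 0.03 ± 0.02, both above 0 on both arrays. With an offset of 0, Ifi35 read -0.0052 on array 1, and with median centring in place of loess Igtp read -0.03 in the mean. Cxcl10, a chemokine that attracts CXCR3-bearing T cells, had the lowest ratio, -0.09 ± 0.08, with -0.04 and -0.15 on arrays 1 and 2. Its signal of 23.8 to 43.3 units was among the dimmest of the measured genes.

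The interferons themselves were not measurable. Of 16 ligand and receptor genes, 14 had a probe, and all 8 ligands among them (Ifnb1, Ifna2, Ifna4, Ifna5, Ifnk, Ifne, Ifng and Ifnl3) were well above background in 0 channels. The 5 measured genes were receptor chains, with a median of 0.11 and 3 above 0 on both arrays (28.3% of all measured genes). Ifnar2, a chain of the type I receptor, was at 0.14 ± 0.18, but its second probe read -0.19. Ifngr1 and Ifngr2, the type II receptor chains, were both at 0.11, though the second probe of Ifngr2 read -0.03, Il10rb at 0.090 ± 0.13 and Ifnar1, the other type I chain, at 0.0024 ± 0.03. The ninth gene without signal was the receptor gene Ifnlr1.

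The 13 measured genes of interferon induction and receptor signalling had a median of 0.072, with 7 above and 2 below 0 on both arrays (28.3% and 29.0% of all measured genes). None of them was at least 0.2 higher or lower (6.43% and 5.20% of all). The highest were Irf8, a factor of myeloid and dendritic cells, at 0.19 ± 0.06 and the receptor kinase gene Jak1 at 0.16 ± 0.22. The lowest were Irf3, which switches on Ifnb1, at -0.15 ± 0.08, the adaptor gene Traf3 at -0.07 ± 0.23 and the kinase gene Tbk1 at -0.05 ± 0.16. The 11 measured brakes on signalling, a list not confined to interferon signalling, had a median of -0.06. Of these, 3 were above and 4 below 0 on both arrays (28.3% and 29.0% of all). At least 0.2 lower were 2 of the 11 (5.20% of all measured genes), and 0 were at least 0.2 higher (6.43%). The 2 were Sla2, an adaptor that restrains antigen receptor signalling in lymphocytes, at -0.38 ± 0.09 and the phosphatase gene Ptpn6 at -0.28 ± 0.09, whose other probe read -0.07. Irf2bp1 was next lowest at -0.16 ± 0.13. The highest were Pias1, a SUMO ligase gene, at 0.16 ± 0.09, the deubiquitinase gene Usp25 at 0.15 ± 0.01, whose second probe read -0.04, and Trim24 at 0.15 ± 0.15.

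A list of 70 further interferon-induced genes gave nearly the same median as the named group. Of these, 49 were measured, with a median of 0.087, 28 above and 9 below 0 on both arrays (28.3% and 29.0% of all measured genes), 10 at least 0.2 higher (6.43%) and 0 at least 0.2 lower (5.20%). The highest were Shisa5, a pro-apoptotic membrane protein gene, at 0.40 ± 0.05, Slfn2, a Schlafen gene needed for T cell quiescence, at 0.35 ± 0.24 and Oas1c at 0.31 ± 0.15. The 3 measured probes of Shisa5 ranged from 0.0046 to 0.40. The lowest were Ly6e at -0.20 ± 0.0068, Gbp4 at -0.13 ± 0.0020 and Lgals9 at -0.11 ± 0.08. As a comparison list, 9 measured NF-kB inflammatory genes had a median of 0.048, with 4 above and 0 below 0 on both arrays (28.3% and 29.0% of all). Birc3, an inhibitor of cell death, was the only one of them past 0.2 upwards (6.43% of all), at 0.23 ± 0.01, and 0 passed it downwards (5.20%). Tnfaip3 at 0.20 ± 0.04 and Relb at 0.14 ± 0.11 followed. Nfkbie at -0.05 ± 0.21, Nfkbia at -0.015 ± 0.17 and Bcl3 at 0.0089 ± 0.03 were the lowest. Whether the medians of these lists differ was not tested.

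**Figure D4:**
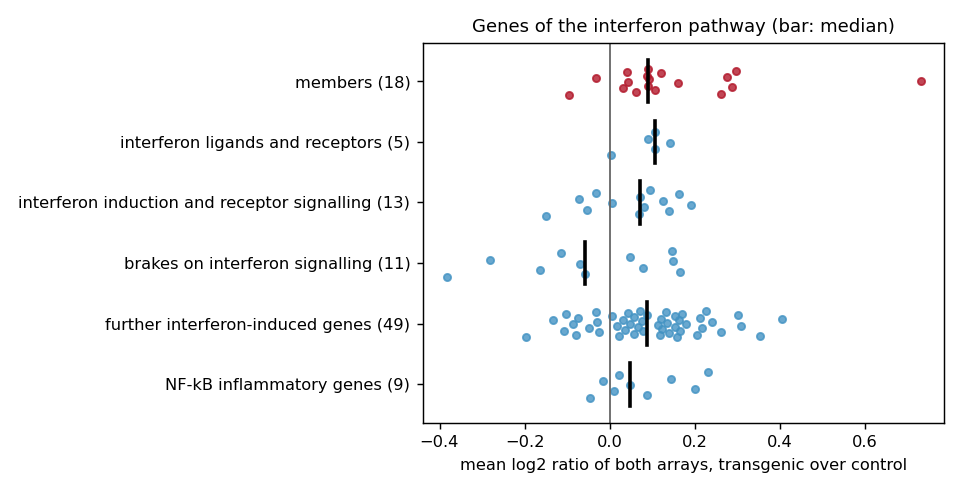
Mean log2 ratio of transgenic over control (x axis) for each measured gene of the named interferon group (red) and of 5 related lists (blue), with the number of genes in brackets and the median of each list as a black bar. The medians of the named group and of the further interferon-induced genes lie at 0.090 and 0.087. That of the brakes, a list not confined to interferon signalling, lies at -0.06.

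The thymus label was borne out by 11 of 12 thymocyte markers being measured, with Rag2 in 0 channels. The probe of Pla2g10 was well above background in 0 of 4 channels, so it does not check the genotype labels. Several cell type markers differed between the pools alongside the interferon group. Of 12 immature thymocyte markers, 11 were measured and 10 were below 0 on both arrays (29.0% of all measured genes), with a median of -0.34 and Ccr9 lowest at -0.53 ± 0.10. Their summed level was 21895 to 21962 in the transgenic and 28223 to 28628 in the control pool. Medullary epithelial markers had a median of 0.33 over 7 measured of 12, highest in the chemokine gene Ccl21a at 0.95 ± 0.08, with sums of 1446 to 1551 and 1005 to 1124, and Cldn3, Cldn4, Tnfrsf11a, Fezf2 and Spib in 0 channels. Conventional dendritic cell markers had a median of 0.22 over 7 measured of 13, with sums of 2286 to 2507 and 1914 to 2071. Ccr7, a gene that is also on the mature T cell list, was highest at 0.45 ± 0.15. Xcr1 and Batf3 read 0.08 and 0.11, were well above background in 3 channels each, and passed the filter through the transgenic pool, where they read higher. The other measured genes, Cd74, H2-Ab1, H2-Eb1 and H2-Aa, belong to MHC class II presentation, which is not confined to these cells. Itgax, Flt3, Zbtb46, Clec9a and Ccl22 were in 0 channels. Of 10 plasmacytoid dendritic cell markers 5 were measured, with a median of 0.048, and Siglech, Spib, Runx2, Cox6a2 and Klk1 were in 0 channels. Macrophage markers had a median of -0.0057 over 9 measured of 12. Neutrophil markers had a median of 0.35 over 6 measured of 12, with sums of 1516 to 1659 and 1109 to 1180. Adipocyte markers had a median of 0.75 over 6 of 12, with sums of 1709 to 1793 and 979 to 1036. Of these, Cfd, Cidec, Car3 and Cidea were well above background in the transgenic channels only. They passed the filter through the pool where they read higher, so this median is partly set by the filter. Fabp4 and Lpl, well above background in all 4 channels, read 0.78 and 0.38. The highest median, 0.85, was that of 3 measured of 10 erythroid markers, led by Hbb-bt at 1.18 ± 0.27, with sums of 5019 to 5786 and 2455 to 2663. For mature T cells, 9 of 12 markers were measured, and 7 of these were above 0 in the mean (49.3% of all measured genes). Their median was 0.085, from Klf2 at -0.54 ± 0.20 to Ms4a4b at 0.67 ± 0.17, but the other measured probe of Klf2 read 0.59. Their sums were 3962 to 4166 and 4595 to 5509, and the Klf2 probe used, at 3340 units above background, was the brightest in them. Fibroblast markers had a median of 0.16 over 8 measured of 10, with sums of 6969 to 7445 and 8486 to 8629. Of the 8, 7 were above 0 in the mean (49.3% of all measured genes). Thy1, by far the brightest in the sums at 7147 units above background, was at -0.34 ± 0.09. Thymocytes also express Thy1, so these sums do not read fibroblasts alone. Cortical epithelial markers had a median of 0.16 over 8 of 10, with sums of 22450 to 22793 and 19568 to 21409. Also in 0 channels were Ngp, Elane, Lcn2, Retnlg, Mmp8 and Mmp9 of the neutrophil list, Mertk and Cd14 of the macrophage list and Plin1, Lep and Retn of the adipocyte list. So were Slc4a1, Epor and Klf1 of the erythroid list, S1pr1 and Gimap4 of the mature T cell list, Pdgfra of the fibroblast list, and Foxn1 and Dll4 of the cortical list. Sums are of intensities after loess and Aquantile scaling, offset included. In these bulk pools a change in the number of cells of a type and a change in RNA per cell cannot be told apart, and the part of these cell types in the interferon ratios was not tested.

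The sign on both arrays rests on the removal of the dye trend. With median centring in place of loess, 1 of 18 genes of the group and 2.12% of all measured genes were above 0 on both arrays. In that way 0 of 18 passed 0.2 (0.945% of all), while the group's median in the mean of both arrays was 0.088.

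**Figure D5:**
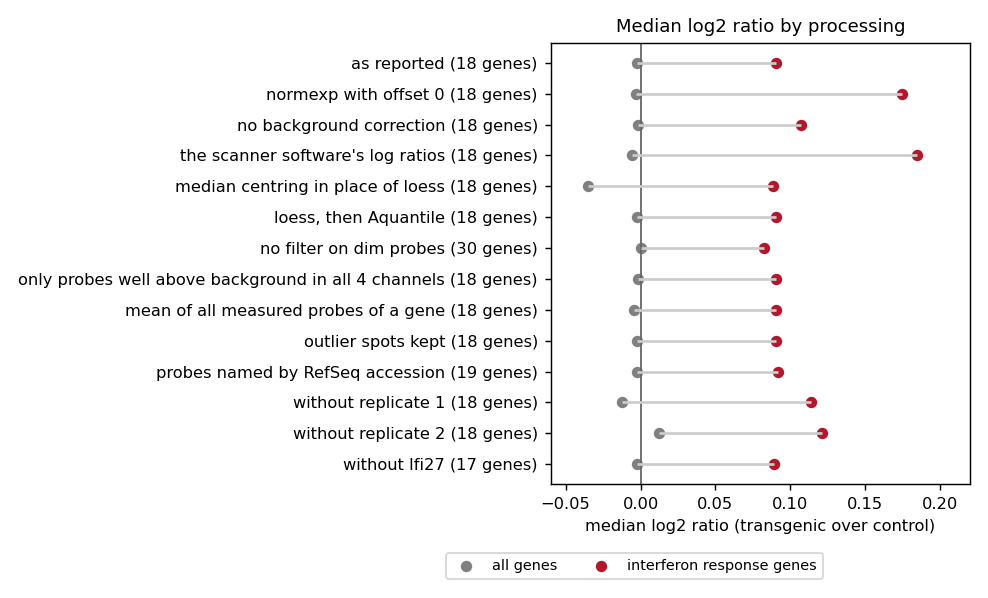
Median log2 ratio (x axis) of all measured genes in grey and of the measured interferon response genes in red under each processing (rows, with the number of interferon genes), where without replicate 1 or 2 means that only the other array was used. The group's median lies between 0.082 and 0.18, to the right of the median of all genes in every row.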

How the data were processed

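The deposited scanner files hold spot and local background intensity per channel on a linear scale, per the file headers, which name the software as Feature Extraction, version 9.5.1.1. Their LogRatio column, and the deposited series table, hold log10 of red over green processed signal, as scanned, with no turning for the exchanged dyes and no centring in the table. Probe positions are on mm8, per the file headers. Exons and UTRs are not given, as no mm8 annotation was used here.

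Mean signals were corrected by normexp with an offset of 50 and normalized by loess within each array (limma 3.58.1, R 4.3.3), with control and outlier spots at weight 0. Outlier spots were left out, and array 2 was multiplied by -1. Procedures were tested on simulated arrays. Other genes were matched by name or RefSeq accession (GRCm38.p6).

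The group and the lists were chosen with earlier results of these data known. Named were all 33 genes, the highest and lowest 3 of each pathway list, and Pla2g10. The rule also took the highest and lowest gene of each marker list, of which Ccr9, Ccl21a, Ccr7, Xcr1, Hbb-bt, Klf2, Ms4a4b, Cfd, Lpl and Thy1 are printed. Cidec, Car3, Cidea, Fabp4 and Batf3 are named for their channels. Cd74, H2-Ab1, H2-Eb1 and H2-Aa are named as the rest of the measured conventional dendritic cell markers. Markers in 0 channels are named for the marker lists reported. Some genes of these lists are not reported here. Alternatives covered background correction, normalization, signal, filter, probe choice, names and single arrays.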

Additional observations from a re-analysis of the deposited data

Results flagged for a closer look

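Probes outside the naming rule carried signal for genes of the group. Irf9, the DNA-binding subunit of ISGF3, had 2 probes under its older name Isgf3g. The brighter was well above background in all 4 channels and gave 0.20 and 0.15 on arrays 1 and 2, a mean of 0.17 ± 0.03, and the other was well above background in 0 channels. Ifi27 by accession, under the older name D12Ertd647e, gave 0.15 ± 0.11, against 0.73 ± 0.30 for the probe that bears the name Ifi27 and the accession of Ifi27l2a.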

How the results depend on the processing

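Each array paired the 2 pools, and every ratio was taken within an array. No test across pairs was possible because the 2 arrays count as 1 replicate, so the values come from no test. The group's median of 0.090 became 0.17 with an offset of 0, 0.11 without background correction, 0.18 with the software's log ratios and with the series table, and 0.082 with no filter on dim probes. On single arrays it ran from 0.11 to 0.12. The 11 genes above 0 on both arrays became 1 with median centring and 20 (of 30) with no filter, where 26.5% of all genes were. Single arrays gave 13 to 14 above 0. The 5 genes at least 0.2 higher became 0 with median centring (0.945% of all measured genes). On either array alone they became 7, where 14.3% of all measured genes passed on array 1 and 7.32% on array 2. They were 6 under the series table, the software's ratios and an offset of 0, Ifih1 being the added gene. The share of all genes that passed was 16.01% under the series table and the software's ratios, and 14.6% with an offset of 0. With probes named by accession the count was 4 of 19 (6.45% of all genes), as Ifi27 then read 0.15. The count at least 0.2 lower, 0 as reported, was 1 under the series table, the software's ratios and an offset of 0, the gene being Cxcl10. Of all genes, 15.5% were that much lower under the series table and the software's ratios, and 14.1% with an offset of 0. On either array alone the count stayed 0 (11.2% of all genes on array 1 and 9.24% on array 2). The count of 2-fold differences stayed 0 to 0. The further interferon-induced genes, at 0.087, read 0.14 under the series table, the software's ratios and an offset of 0, 0.051 with median centring, and 0.069 to 0.12 on single arrays. An offset of 0 removes the shrinkage of dim ratios by construction. The cause of the other shifts was not tested.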
